A study of Mus musculus with 18 samples.

Results

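Undifferentiated mouse neurospheres that lack Pcdh19 were compared with wild type neurospheres, using the 6 arrays of these 2 groups at day 0 out of 18 in the series. The members were chosen by their labels: 3 arrays of Pcdh19 knockout and 3 arrays of wild type cultures, all before differentiation. The other 12 arrays held a mosaic, that is a mix of cells of both genotypes, at day 0 and all 3 kinds of culture at day 4 of differentiation, with 3 arrays in each group. Neurospheres are floating clusters of neural stem and progenitor cells; the sources used here give neither the strain and age nor the way the gene was disrupted, and every culture is labelled female. The series' design text calls the replicates technical, so all p-values here measure only the spread between these samples. A difference between the genotypes, on 1 day or on both, cannot be told apart from a difference between the cultures used. Signals are log2 values, so a difference of 1 is a 2-fold change in signal, and fewer cells of a type and less RNA per cell cannot be told apart.

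Pcdh19 is a protocadherin, a cell surface protein of the cadherin superfamily whose gene lies on the X chromosome. Protocadherins of its subgroup, the delta protocadherins, join neighbouring cells by weak homophilic binding and act together with classical cadherins such as N-cadherin (Cdh2) and, inside the cell, with the WAVE complex that drives actin branching. In people, loss of PCDH19 function in only part of the cells, as in females with 1 altered copy, is linked to an epilepsy, which is why mixtures of both genotypes are of interest.

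The cultures had the transcripts of neural stem cells. All 11 neural stem cell markers on the array lay above the array median on each of the 6 arrays, and 7 lay above the 90th percentile. Sox2, a transcription factor that maintains neural stem cells, ranged from 10.9 to 11.0, and Fabp7, a fatty acid binding protein of radial glia, from 13.2 to 13.3, against array medians of 4.904 to 4.957. Markers of other neural cells were also above the median on all 6 arrays. These were 5 of 5 for oligodendrocyte progenitors, 5 of 5 for astrocytes and 5 of 6 for neurons. For oligodendrocytes and for ependymal cells it was 2 of 4 each. Outside these, it was 1 of 3 neural crest and Schwann markers, 1 of 6 microglial markers and 2 of 10 endothelial, mural and fibroblast markers. Pearson correlations across all probe sets were 0.986 among wild type arrays, 0.983 to 0.984 among knockout arrays and 0.983 to 0.987 between the genotypes, so the range between genotypes overlapped those within them. The sex label stood against the values: Xist, the RNA that coats the inactive X chromosome of females, read 3.27 to 3.45 in wild type and 3.47 to 3.62 in knockout and did not pass the filter on low values. The Y-linked gene Eif2s3y read 8.77 to 8.93 and 8.86 to 9.04, no lower than the 89.7th percentile on any of the 18 arrays. The Y-linked Kdm5d and Uty were no lower than the 77.8th and 78.2nd percentile. Other Y-linked genes were low: Usp9y and Zfy2 were no higher than the 21.6th and 24th percentile and did not pass the filter. Both genotypes showed this pattern.

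Pcdh19 itself had the lowest difference of all genes tested. Its signal was 6.85, 6.83 and 6.66 on the wild type arrays and 5.39, 5.46 and 5.68 on the knockout arrays. The groups did not overlap, and the gap between them was wider than the range within either. The log2 difference was -1.27 ± 0.264 (SE, n = 3 arrays a group), or 2.41-fold lower, with a 95% interval from -1.83 to -0.71. Its unadjusted p was 0.00018, but over 19016 genes the adjusted p was 0.855 (limma), so it was not called. The exact two-sided permutation test gave p = 0.1, the smallest that 3 arrays against 3 allow. The mosaic arrays read 6.03, 6.31 and 5.65 at day 0, between the means of both genotypes, and 6.54, 7.09 and 5.52 at day 4. Mosaic arrays had the widest spread of any group, with SDs of 0.334 and 0.793 against 0.106 in wild type and 0.150 in knockout at day 0. The model shares 1 spread over all 6 groups, and without the mosaic arrays the SE was 0.106 (day 0 arrays alone, adjusted p = 0.0445 by limma) or 0.110 (both days, adjusted p = 0.00116 by limma), which called the gene. The knockout signal stayed above the array medians; whether the probe set lies in the deleted part is not given in the sources used here, so the remaining signal does not measure residual transcript, and a probe set outside that part would not check the labels.

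**Figure D1:**
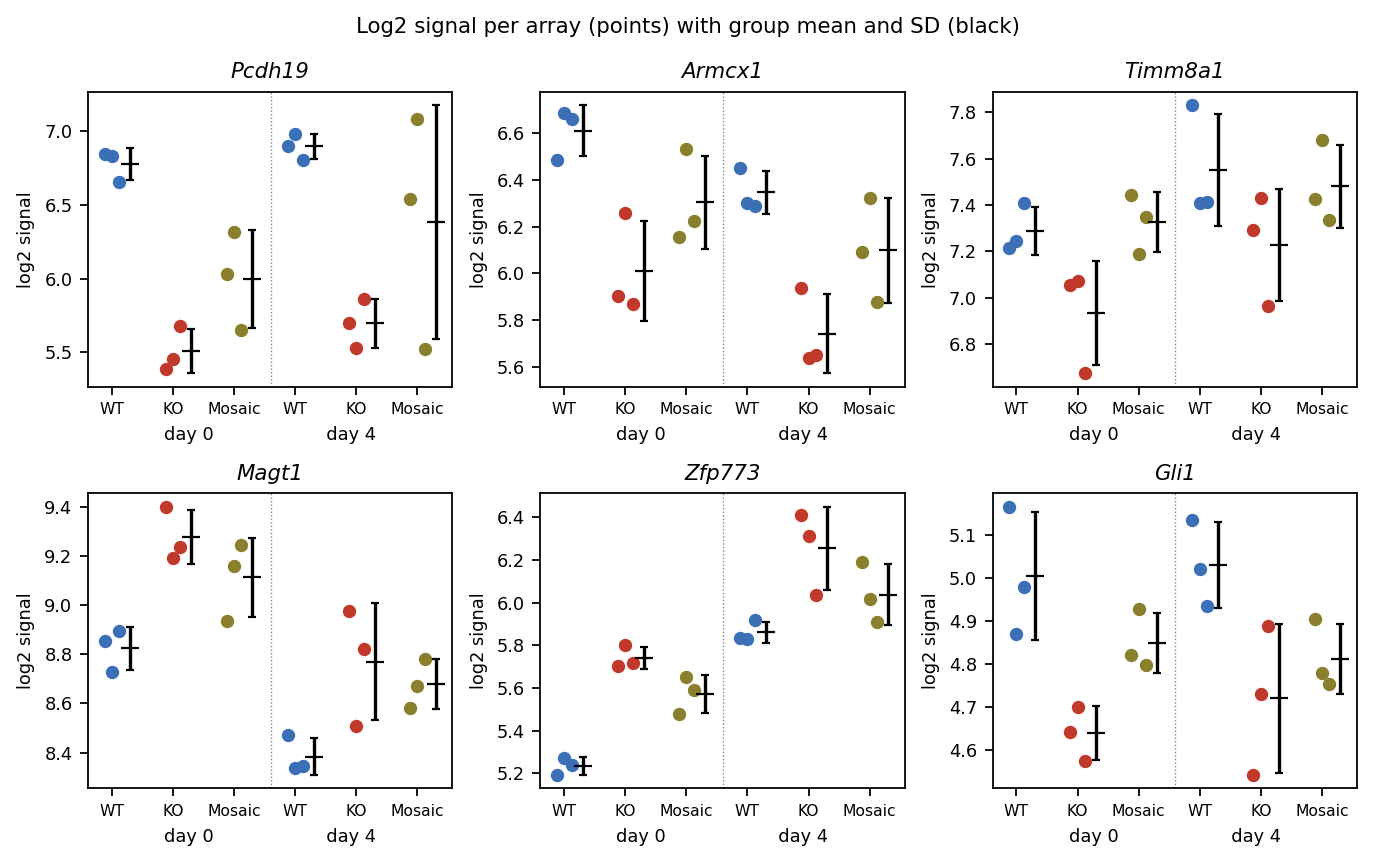
Log2 signal of Pcdh19, Armcx1, Timm8a1, Magt1, Zfp773 and Gli1 on each array (points: wild type blue, knockout red, mosaic olive) at day 0 and day 4, with group mean and SD in black; each panel has its own vertical axis. Pcdh19 lay between 6.66 and 6.85 in wild type and between 5.39 and 5.68 in knockout at day 0.

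Over the genes tested, most measured differences between the genotypes were small. Of 19016 genes tested, 0 were called at an adjusted p under 0.05 (limma, 0% called), while 686 (3.61%) had an unadjusted p under 0.05, 402 of them higher and 284 lower in knockout. The smallest adjusted p over genes was 0.564. It was shared by Itgbl1 at 0.56, Krt71 at 0.95 and Zfp773 at 0.50, which were chosen after their values were seen. For 18873 genes (99.2%) the 95% interval of the difference lay within 2-fold either way, and for 16962 (89.2%) within 1.5-fold. These shares include genes with a signal near the level of the filter, where a small difference says little about the genotypes. The intervals rest on the spread between technical replicates. The median SE of a difference was 0.126. Among 17824 probe sets without exactly 1 gene symbol, 3 (0.0168%) were called, and they are described among the additional observations. Only 3 genes (0.0158%) differed by 2-fold or more: Pcdh19, Adcy2 at -1.03 (unadjusted p = 0.0399 by limma) and Rps13 at 1.22 (unadjusted p = 0.236 by limma). The latter pair had overlapping groups, each with 1 array far from the rest of its group. Rps13, a ribosomal protein gene, read 8.35, 7.72 and 4.02 in wild type and 7.58, 7.61 and 8.56 in knockout, and without the low wild type replicate 3 its difference was -0.115. Adcy2, an adenylyl cyclase, read 7.60, 7.39 and 7.73 in wild type and 5.66, 7.92 and 6.04 in knockout. Flrt1, an adhesion protein with leucine-rich repeats chosen after its values were seen, read 5.86, 6.13 and 5.86 against 5.71, 4.71 and 5.09. Its difference of -0.78 was not called (adjusted p = 0.932 by limma), but without knockout replicate 1 it was -1.051 and called (adjusted p = 0.00292 by limma).

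**Figure D2:**
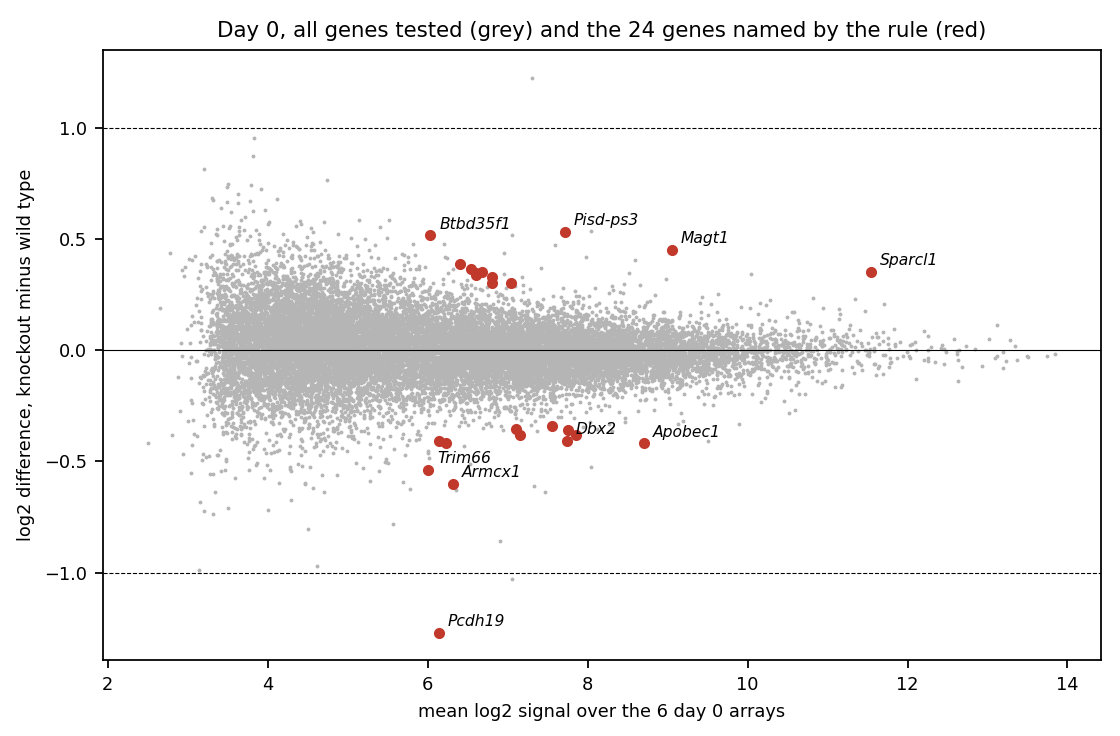
Log2 difference at day 0 (knockout minus wild type) against mean log2 signal over the 6 arrays, for all 19016 genes tested (grey) and the 24 genes named by the rule (red); dashed lines mark 2-fold either way. Pcdh19 is the lowest point at -1.27, and 3 genes lie at or beyond a dashed line.

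The largest differences among genes with a mean signal above the median of the tested genes and with groups that did not overlap were small. None of them was called, and such separation was seen in 9.2% of all genes tested (905 or 4.76% higher, 845 or 4.44% lower), so their separation alone does not set them apart. The values below chose these genes and are a description. The 12 highest ranged from 0.30 to 0.53. Among them Magt1, an X-linked subunit of the oligosaccharyltransferase complex also known as a magnesium transporter, read 8.86, 8.73 and 8.89 in wild type and 9.40, 9.19 and 9.24 in knockout, a difference of 0.45 ± 0.115 (SE, n = 3). All 3 knockout arrays lay above all wild type arrays. Cebpd, a basic leucine zipper transcription factor, differed by 0.39, and Espl1, the separase that frees sister chromatids at anaphase, by 0.35. Sparcl1, a secreted matrix protein of astrocytes, was the most abundant, at 11.3, 11.5 and 11.3 against 11.6, 11.8 and 11.8. Col5a2, a collagen chain, differed by 0.34, and Dmrta2, a transcription factor of cortical progenitors, by 0.30. Apoo, a protein of mitochondrial cristae junctions, differed by 0.33 and Wdpcp, which takes part in cilium formation, by 0.30. The remaining 4 were Pisd-ps3 at 0.53, Btbd35f1 at 0.52, Eola1 at 0.36 and the zinc finger gene Zfp180 at 0.35. Pisd-ps3 is named as a pseudogene, so its probes may also read related transcripts.

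The 12 lowest, Pcdh19 included, reached down from -0.34. Armcx1, an X-linked protein of the mitochondrial outer membrane that promotes mitochondrial transport in axons, read 6.49, 6.69 and 6.66 in wild type and 5.90, 6.26 and 5.87 in knockout. The groups were apart, and the difference was -0.60 ± 0.137 (SE, n = 3; unadjusted p = 0.000439, adjusted p = 1 by limma). Dbx2, a homeobox factor of progenitor domains, read 7.85, 8.12 and 7.88 against 7.40, 7.66 and 7.57. Apobec1, a cytidine deaminase that edits RNA, differed by -0.42, Akap12, a scaffold for protein kinase A, by -0.36, and Mios, a subunit of the GATOR2 complex upstream of mTORC1, by -0.34. Trim66 differed by -0.54, Samd10 by -0.41, and the zinc finger genes Zfp937 and Zfp960 by -0.42 and -0.38. Fundc2, a mitochondrial outer membrane protein, differed by -0.38, and Timm8a1, an import chaperone of the mitochondrial intermembrane space, by -0.35. Of these, 3 had other probe sets that did not show the difference: Timm8a1 gave -0.05 and 0.16 in its other probe sets, Zfp937 gave 0.17 and Fundc2 gave -0.05.

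In the differentiated cultures, whose differences were not used to choose these genes (probe sets and filter were set over all 18 arrays), the sign was the same for 12 of the 23 genes other than Pcdh19 and the opposite sign for 11, and 44.9% of all genes tested kept their sign. At day 4 the groups did not overlap in the same direction for 3 of the 23 and in the opposite direction for 3, against 16.8% of all genes that did not overlap in either direction. Armcx1 differed by -0.61 at day 4 and Magt1 by 0.39, close to their day 0 values. Akap12 was the third, at -0.14. Cebpd at -0.28, Espl1 at -0.22 and Col5a2 at -0.22 were those in the opposite direction. No gene passed the test of the difference between the days (limma, 0 of 19016 at an adjusted p under 0.05 and 1809, or 9.51%, at an unadjusted p under 0.05), and 0 were called at day 4, where 2411 (12.7%) had an unadjusted p under 0.05. Over all genes, 35 had an unadjusted p under 0.05 on both days with the same sign and 114 with opposite signs. The sources used here do not say whether the day 4 arrays come from cultures independent of those at day 0. A difference kept on both days may therefore repeat 1 difference between cultures, which was not tested.

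**Figure D3:**
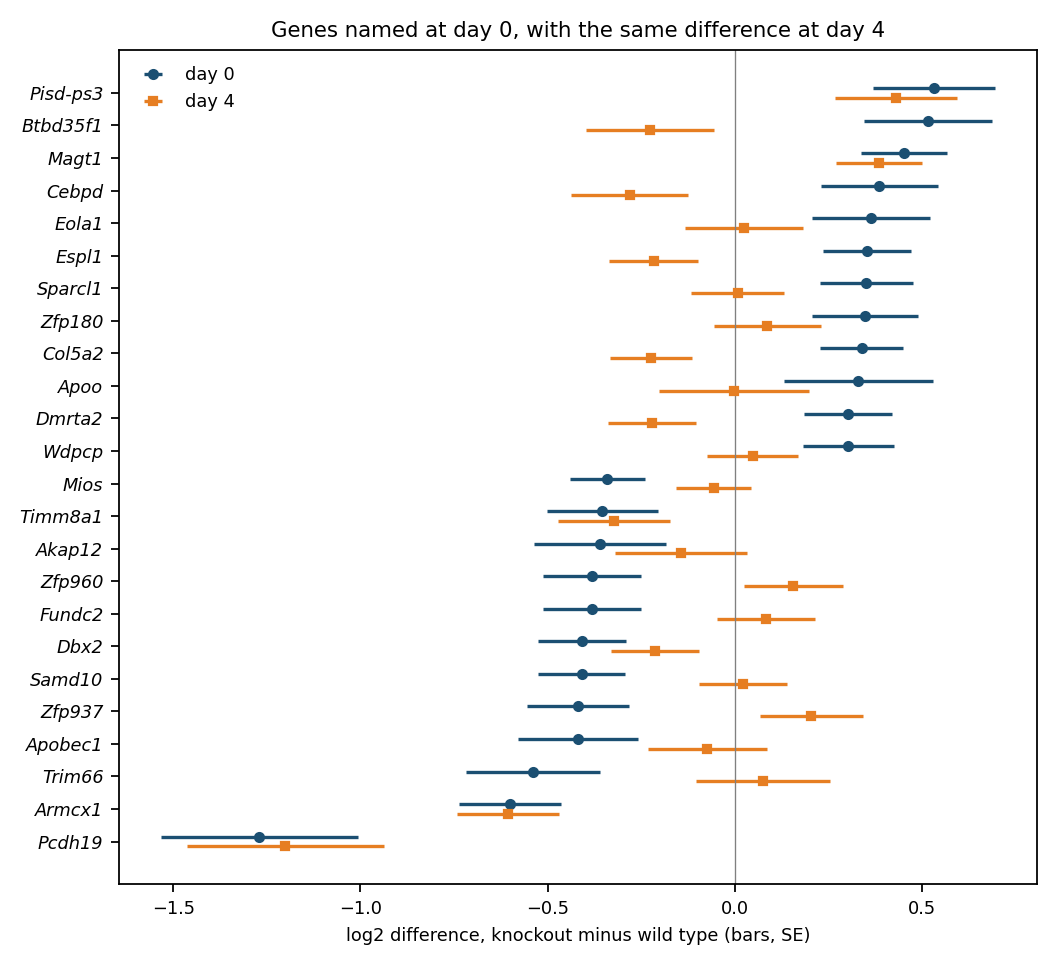
Log2 difference (knockout minus wild type) at day 0 (circles) and day 4 (squares) for the 24 genes named at day 0, with SE bars. Pcdh19, Armcx1 and Magt1 lie at similar values on both days (Pcdh19 at -1.27 and -1.20), while 11 of the other 23 genes have the opposite sign.

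A few genes outside the rule, chosen after their values were seen because they were apart on both days, add to this group. Zfp773, a zinc finger gene, read 5.19, 5.27 and 5.24 in wild type and 5.70, 5.80 and 5.72 in knockout, with differences of 0.50 at day 0 and 0.39 at day 4. Gli1, a transcription factor and target of hedgehog signalling, read 5.17, 4.87 and 4.98 against 4.64, 4.70 and 4.58, with differences of -0.37 and -0.31. Neither pair of groups overlapped on either day, which 106 genes showed in 1 direction and 212 in opposite directions. Neither gene was called (adjusted p = 0.564 and 1 at day 0 by limma). The signal of Gli1 was low: its knockout values and the wild type value of 4.87 lay below the array medians of 4.904 to 4.957.

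Armcx1 and Timm8a1 lie near Pcdh19 on the X chromosome. In the order of tested genes, Timm8a1 was the 11th and Armcx1 the 15th after Pcdh19. The 25 tested genes on each side held 24 that were higher and 26 that were lower in knockout, with a median difference of -0.004. An unadjusted p under 0.05 was found for 0 higher and 3 lower genes of these 50, namely Srpx2 at -0.30, Timm8a1 and Armcx1, against 2.11% and 1.49% of all genes. All 3 lay on the side after Pcdh19. For Timm8a1 this rests on its probe set of highest mean signal. Its other probe sets gave -0.05 and 0.16 at day 0 and 0.48 and -0.24 at day 4. Over the other 626 X-linked genes tested, 17 were higher and 7 lower at that threshold, with a median of 0.001.

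**Figure D4:**
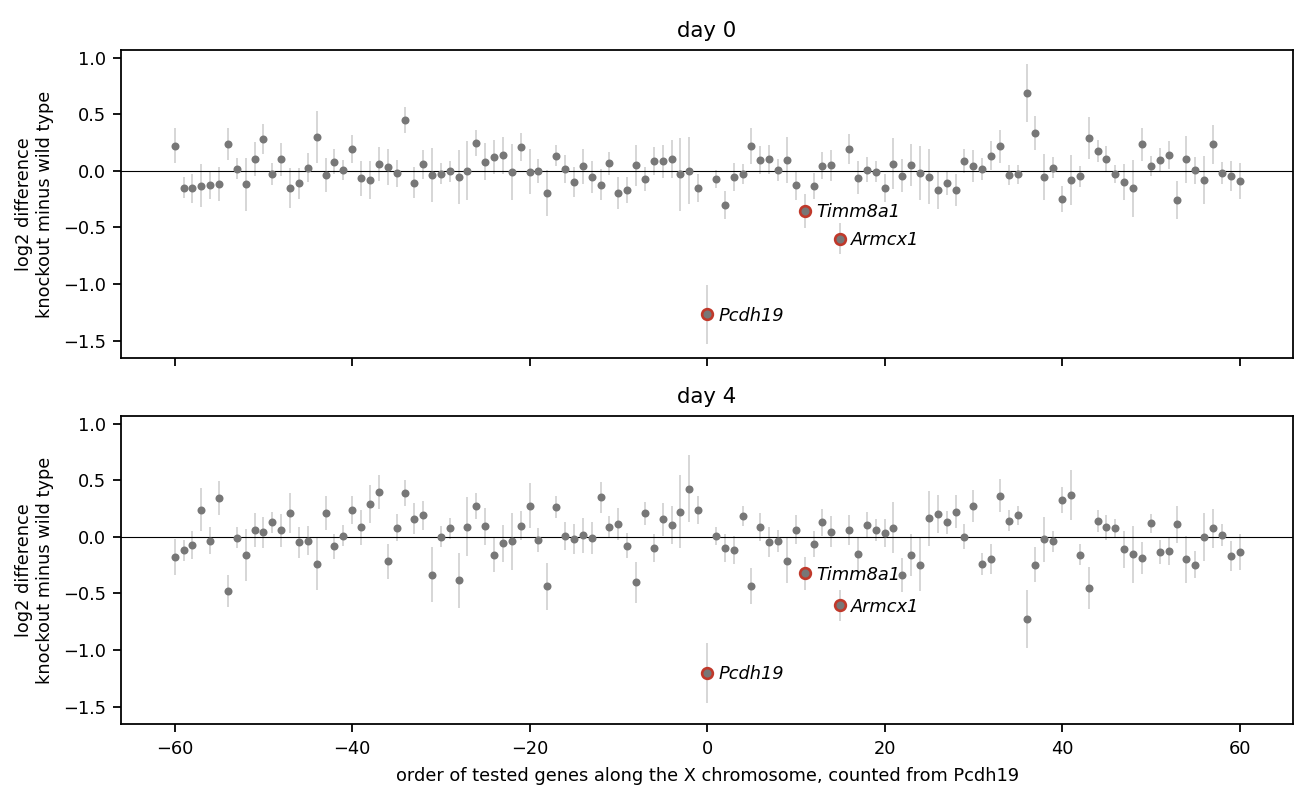
Log2 difference (knockout minus wild type, bars SE) at day 0 and day 4 for tested genes in their order along the X chromosome, counted from Pcdh19 at 0. Pcdh19, Timm8a1 and Armcx1 (red) lie below 0 on both days, at -1.27, -0.35 and -0.60 at day 0. Each gene is drawn from its probe set of highest mean signal, and other Timm8a1 probe sets did not show the difference.

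The promoters of Pcdh19 and of Armcx1 and Magt1, named X-linked genes whose groups were apart on both days, are shown from 250 bases before to 50 after the start (RefSeq, GRCm38.p6; chrX:133688944-133689243 on the minus strand, chrX:134717688-134717987 on the plus strand and chrX:106011753-106012052 on the minus strand). Capitals mark the E-box CACGTG, the GC box CCGCCC and the box CCAAT on either strand; the TATA box TATAAA was also searched. The motifs were chosen after the sequences were seen, and no match overlaps another.
Pcdh19: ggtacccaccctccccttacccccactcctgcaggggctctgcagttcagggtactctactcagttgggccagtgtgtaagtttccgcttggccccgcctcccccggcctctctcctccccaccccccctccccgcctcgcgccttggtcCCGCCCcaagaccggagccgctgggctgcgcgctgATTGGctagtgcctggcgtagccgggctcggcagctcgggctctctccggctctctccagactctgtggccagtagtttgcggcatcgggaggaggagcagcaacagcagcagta
Armcx1: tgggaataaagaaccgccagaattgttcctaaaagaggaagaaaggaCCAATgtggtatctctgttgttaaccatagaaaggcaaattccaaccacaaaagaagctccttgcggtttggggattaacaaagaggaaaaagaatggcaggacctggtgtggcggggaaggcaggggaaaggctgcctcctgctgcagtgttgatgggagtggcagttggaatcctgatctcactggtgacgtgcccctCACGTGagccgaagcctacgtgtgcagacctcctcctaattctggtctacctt
Magt1: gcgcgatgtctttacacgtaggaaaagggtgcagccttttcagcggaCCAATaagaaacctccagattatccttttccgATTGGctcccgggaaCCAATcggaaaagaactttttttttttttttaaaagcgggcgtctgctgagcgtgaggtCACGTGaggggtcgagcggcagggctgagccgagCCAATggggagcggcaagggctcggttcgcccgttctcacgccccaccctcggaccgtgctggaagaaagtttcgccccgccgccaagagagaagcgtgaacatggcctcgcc
The Pcdh19 window held 1 CCGCCC and 1 CCAAT, that of Armcx1 held 1 CACGTG and 1 CCAAT, and that of Magt1 held 1 CACGTG and 4 CCAAT. Of 32851 mouse promoters of this length, 35.7% held CCGCCC, 37.4% CCAAT, 7.15% CACGTG and 13.6% TATAAA, which none of the 3 windows held. The windows held 18, 7 and 26 CpG dinucleotides against a median of 7. These are descriptions of the sequence, with no measurement of binding.

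Among the relatives and partners of Pcdh19, no gene was called. Of 9 delta protocadherins tested besides Pcdh19, 0 passed in either direction, 4 were higher and 5 lower, and the median was -0.041 against 0.001 over all genes. Pcdh1 read 5.74, 5.97 and 5.85 in wild type and 5.66, 5.44 and 5.49 in knockout, a difference of -0.32 (adjusted p = 1 by limma) without overlap. Pcdh8 differed by 0.18, Pcdh18 by 0.10 and Pcdh20 by -0.13. Of 21 clustered protocadherins, 11 were higher and 10 lower (median 0.002), with Pcdhb11 at 0.42 and Pcdhb5 at -0.32; the members share sequence, so their probe sets may read one another. Of 23 classical cadherins and catenins, 10 were higher and 13 lower (median -0.005). Cdh2, which binds together with Pcdh19, was nearly level at 10.8 on all 6 arrays, and its difference of -0.002 had a 95% interval from -0.17 to 0.17. Of 10 WAVE complex genes, 4 were higher and 6 lower (median -0.025). Cyfip2, a subunit of that complex, read 9.24, 9.36 and 9.30 against 8.90, 8.71 and 9.29, so that 1 knockout array lay within the wild type range. Nono, a nuclear RNA-binding protein reported to bind Pcdh19, differed by 0.003 (95% interval -0.15 to 0.16), and the list of steroid receptors, Nono partners and neurosteroid enzymes had 11 higher and 9 lower of 20 (median 0.008). Within it Nr3c2, the mineralocorticoid receptor, differed by -0.19, a value that reversed to 0.003 with the mean of its probe sets.

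**Figure D5:**
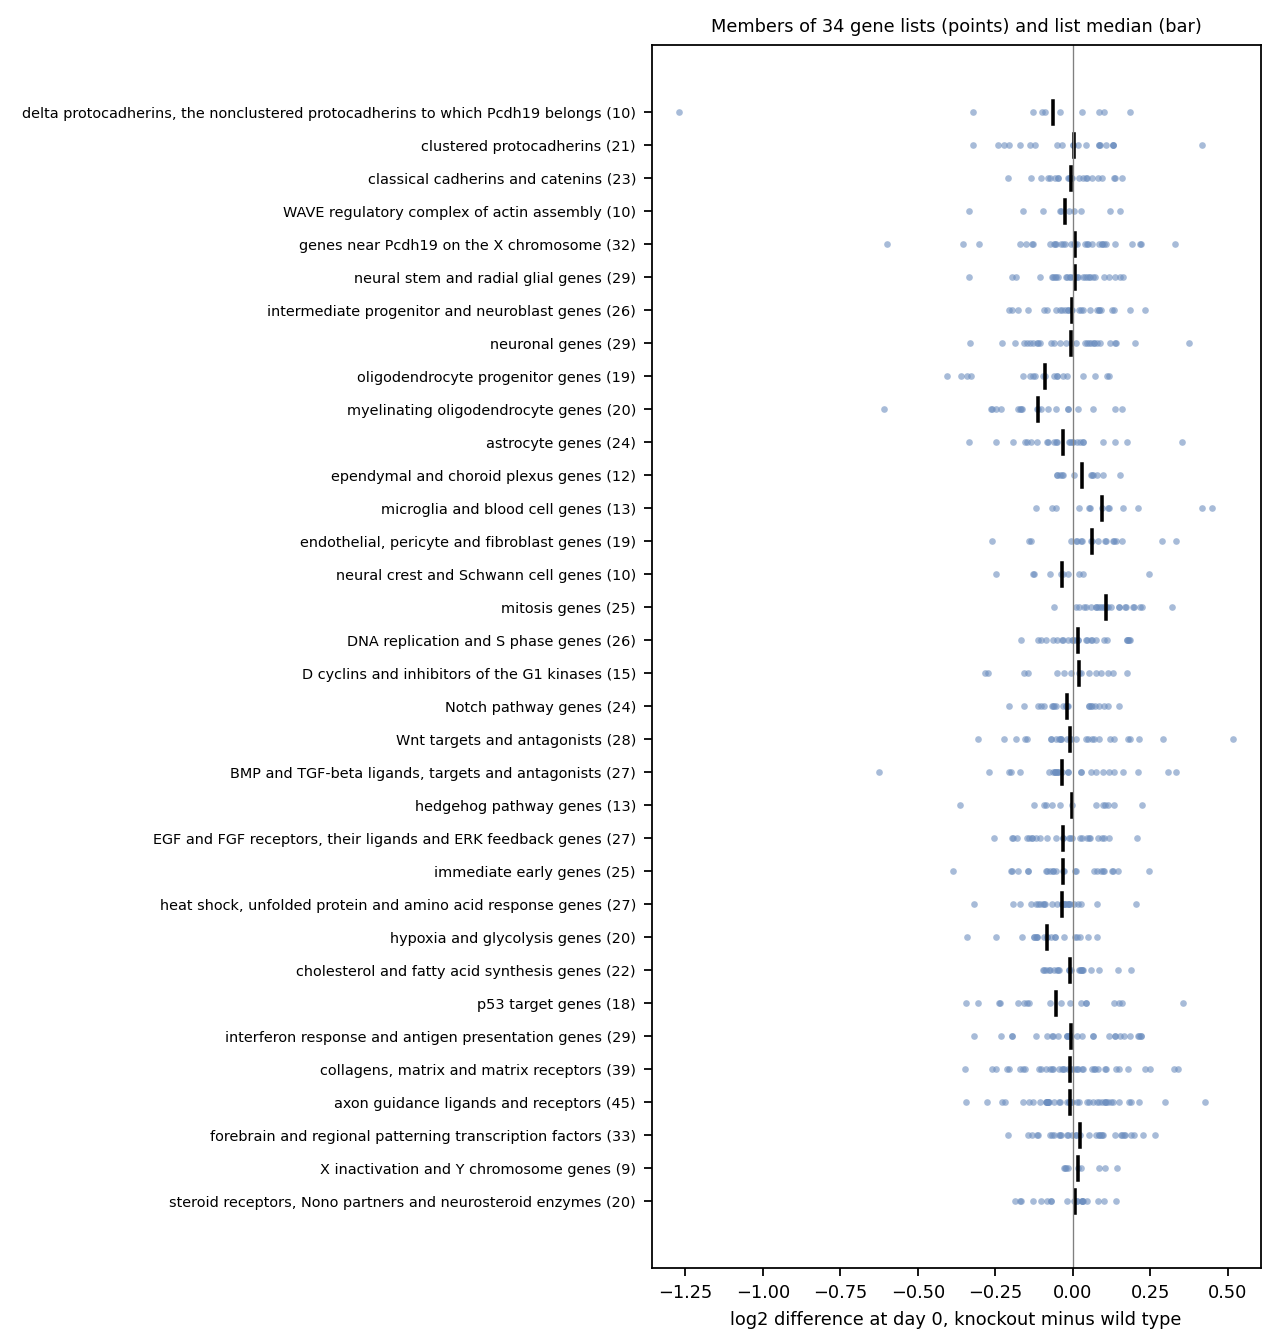
Log2 difference at day 0 (knockout minus wild type) for the tested members of 34 gene lists (points, number in brackets) and the list median (bar). The mitosis genes lie mostly to the right of 0 (24 of 25) and the myelinating oligodendrocyte genes mostly to the left (16 of 20), and no member of any list was called.

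Stem cell, progenitor and neuronal genes lay evenly around 0. Of 29 neural stem and radial glial genes, 15 were higher and 14 lower (median 0.007), and 0 were called. Tnc, a matrix glycoprotein of stem cell niches, read 10.2, 10.4 and 10.3 against 10.1, 10.1 and 10.2. Ptprz1, a receptor phosphatase of radial glia, differed by -0.11. Of 26 progenitor and neuroblast genes, 12 were higher and 14 lower (median -0.004, and 0.035 without knockout replicate 2). Dlx6, a homeobox factor of interneuron progenitors, differed by 0.23 at day 0 and -0.61 at day 4, with an adjusted p of 0.233 for the difference between the days (limma). Its mean day 0 signal of 4.54 lay below the array medians. Of 29 neuronal genes, 14 were higher and 15 lower (median -0.006, and -0.049 without wild type replicate 1), with Kif5c, a kinesin motor, at -0.33.

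Oligodendrocyte lineage genes were mostly lower, without a call. Of 20 myelinating oligodendrocyte genes, 16 were lower and 4 higher, with a median of -0.114. This rested on the first 2 knockout arrays. The list's median deviation was -0.220 and -0.221 on knockout replicates 1 and 2 but 0.201 on replicate 3, against 0.051, 0.089 and 0.064 in wild type, and without replicate 3 the median difference was -0.288. Enpp6, a marker of newly forming oligodendrocytes, read 7.67, 7.71 and 7.53 in wild type and 6.59, 6.33 and 8.15 in knockout. Of 19 progenitor genes of this lineage, 15 were lower and 4 higher (median -0.091). The median deviations of these progenitor genes overlapped, at -0.057, 0.049 and 0.111 in wild type and -0.028, -0.068 and 0.043 in knockout. Gpr17, a receptor of committed progenitors, read 9.54, 9.76 and 9.82 against 9.23, 8.79 and 9.88, and Nkx2-2, a transcription factor of the lineage, differed by -0.36. Replicate 3 of the knockout was the highest of its group for Bmp4, a secreted ligand, at 5.67, 5.59 and 6.85. The Bmp4 difference over all 3 was -0.63. For Gfap, an astrocyte filament protein, replicate 3 was also the highest, at 7.93, 7.59 and 8.77. The wild type mean of Gfap was 8.43, so replicates 1 and 2 lay below it and replicate 3 above. For Nes, the stem cell filament protein nestin, replicate 3 was the lowest, at 8.91, 8.78 and 8.11 against a wild type mean of 8.50. The median deviation of the 29 neural stem genes was nevertheless highest on replicate 3, at 0.022, -0.024 and 0.034. Without it the median difference of that list was -0.015, and Pax6, a transcription factor of neural progenitors, differed by -0.081 against 0.01 with it. The part of this array in the other results was not tested beyond leaving it out. Of 24 astrocyte genes, 9 were higher and 15 lower (median -0.032).

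Genes of mitosis lay on the other side of 0. Of 25 tested, 24 were higher and 1, the spindle checkpoint kinase Ttk at -0.06, was lower, with a median of 0.108, and 0 passed in either direction. In 5 of 25 the groups did not overlap, all higher in knockout, against 4.76% of all genes. Cdc20, an activator of the anaphase-promoting complex, read 8.56, 8.63 and 8.70 against 8.92, 8.83 and 8.79. Aspm, a spindle pole protein, differed by 0.20, the kinase Aurka by 0.19 and the kinesin Kif11 by 0.17. Ccnb2, a mitotic cyclin, differed by 0.32 with overlapping groups, and Mki67, the proliferation marker, by 0.07. The members share the cell cycle and are not independent, and at day 4 their median was -0.135. The list's median deviation per array was -0.154, -0.025 and -0.031 in wild type and 0.123, 0.050 and -0.005 in knockout. DNA replication genes did not show this shape, with 15 higher and 11 lower of 26 (median 0.016), and Mcm7, a helicase subunit, differed by 0.17 and Tyms, thymidylate synthase, by -0.17.

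Signalling lists held no call. Of 24 Notch genes, 9 were higher and 15 lower (median -0.020), with the HES family gene Hes6 at 0.15. Of 28 Wnt targets and antagonists, 13 were higher and 15 lower (median -0.008). The largest difference was that of Nkd1 at 0.52, with overlapping groups. The Wnt deacylase Notum differed by -0.31 without overlap, and the other Notum probe set gave 0.17. Of 27 BMP and TGF-beta genes, 11 were higher and 16 lower (median -0.034), with the ligand Tgfb3 at 0.31 and the antagonist Chrd at -0.20. Of 13 hedgehog genes, 6 were higher and 7 lower (median -0.004, and -0.044 to 0.073 with single arrays left out), Gli1 being the lowest. Of 27 genes for EGF and FGF receptors, their ligands and ERK feedback, 10 were higher and 17 lower (median -0.032). Egfr, the receptor for EGF, read 11.3, 11.0 and 11.1 against 11.2, 11.3 and 11.0.

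Lists of stress and metabolism were also without a call. Of 27 heat shock and unfolded protein genes, 22 were lower and 5 higher (median -0.036), and of 20 hypoxia and glycolysis genes, 15 were lower and 5 higher (median -0.084). The median deviations of the heat shock list overlapped, at -0.036, 0.1 and 0.015 in wild type and 0.016, -0.067 and -0.009 in knockout. For the hypoxia list the wild type arrays themselves differed more, with median deviations of -0.221, 0.370 and 0.031. Pfkp, a phosphofructokinase, differed by -0.34. Markers of microglia were low. Of 13 microglia and blood genes, 10 were higher and 3 lower (median 0.093). The list's median deviations were -0.009, -0.008 and -0.181 in wild type and 0.05, 0.102 and 0.019 in knockout. Its median difference at day 4 was -0.063. P2ry12, a purine receptor of microglia, read 4.68, 4.95 and 4.62 against 5.01, 5.23 and 5.25. C1qc, a complement subunit, differed by 0.45 at a mean signal of 3.92. The microglial markers had array means of 4.336 to 4.553 in wild type and 4.540 to 4.645 in knockout, below the array medians, with 1 of 6 above the median on all arrays, and their part in other differences was not tested. Of 19 endothelial, pericyte and fibroblast genes, 15 were higher and 4 lower (median 0.060), among them Col1a2, a collagen chain, at 0.29; the other Col1a2 probe set gave 0.05. Without knockout replicate 3 the median of this list was 0.106. Its median deviations overlapped, at 0.037, -0.063 and -0.008 in wild type and 0.046, 0.017 and 0.041 in knockout. At day 4 the median difference of the list was -0.219.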

How the data were processed

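RNA was measured on 18 Affymetrix mouse gene arrays, after Trizol extraction and a column clean-up, per the labels' protocols. The authors deposited 1 normalized log2 value for each of 41345 probe sets on each array. That scale was inferred from the range of 0.722 to 13.966, since the sources used here name neither log base nor normalization. Of the probe sets, 23521 had exactly 1 symbol in GEO's platform annotation, 1814 had several and 16010 had none listed. For each of 22180 genes the probe set of highest mean signal (18 arrays) was kept, and 19016 genes passed a filter (above the 25th percentile of the array on at least 3 arrays). All 18 arrays entered 1 model of 6 group means in limma 3.58.1 in R 4.3.3 (lmFit, eBayes, two-sided, Benjamini-Hochberg over 19016 genes, called at an adjusted p under 0.05; total degrees of freedom 16.363). The fit was tested on simulated data. The genes and lists were chosen with earlier results of these data known. The rule for named genes took Pcdh19, every called gene, the 12 highest and 12 lowest differences among genes whose 3 knockout and 3 wild type arrays did not overlap and whose mean lay above the median of the tested genes (predicted genes, clones, olfactory and small RNA genes left out), and up to 4 members of each list; other genes named were chosen after their values were seen. Alternatives changed the normalization, filter, probe set rule, variance model, array weights, arrays in the fit, minimum change, threshold and replicate block, and left out each of the 6 compared arrays in turn (no mosaic or day 4 array was left out singly). The number of arrays limits the precision. Replicate numbers were not used to pair the samples in the main fit. Deviations from the group means of equally numbered wild type and knockout arrays correlated at 0.049, 0.014 and 0.019 across genes, under the threshold of 0.1. Low correlations do not show that the arrays were unpaired.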

Additional observations from a re-analysis of the deposited data

Results flagged for a closer look

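Of 17824 probe sets without exactly 1 symbol, none of which entered the comparison of named genes, 3 were higher in the knockout at day 0 at an adjusted p under 0.05 (limma, fitted over these 17824 probe sets alone, Benjamini-Hochberg), which is 0.0168% of them. They are given here as a signal outside the main measurement. Probe set 17549054 read 3.46, 3.55 and 3.95 on the wild type arrays and 5.47, 5.25 and 5.33 on the knockout arrays, a log2 difference of 1.70 ± 0.188 (SE, n = 3 arrays a group, adjusted p = 0.00129 by limma). Its groups did not overlap. The wild type mean of 3.65 lay at the 25th percentile of the arrays (3.621 to 3.671), the level of the filter used for named genes, so no fold is given. Probe set 17549080 differed by 1.70 and probe set 17549096 by 1.53, with the same adjusted p. These are not independent measurements: over the 18 arrays the values of 17549054 and 17549080 never differed by more than 0.106. The mosaic means at day 0 were 4.79, 4.75 and 4.66. At day 4 the knockout was again higher, by 1.59, 1.63 and 1.31 (adjusted p = 0.00282, 0.00228 and 0.00536 by limma), and the difference between the days did not pass the test (adjusted p from 0.829 to 0.956). No gene is named for these probe sets here.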

How the results depend on the processing

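The count of 0 genes called at day 0 held under every alternative run except 4. It was 1 in a fit restricted to the 6 arrays compared and 1 in the fit of both days without the mosaic arrays, and in both the gene was Pcdh19, at -1.27 (adjusted p = 0.0445 and 0.00116 by limma). It was 1 without knockout replicate 1, where the gene was Flrt1. With all 41345 probe sets in 1 fit, an alternative chosen after seeing the data, 3 were called. That is a count of probe sets, including those without exactly 1 symbol, and not of genes. Leaving out each of the 6 compared arrays (no single mosaic or day 4 array was left out) gave 0 to 1 calls at day 0, 0 to 2 at day 4 and 0 to 2 for the interaction. With quantile normalization the calls at day 4 and for the interaction were 1 and 1. With the filter at the 50th percentile they were 2 and 1, and 442 genes had an unadjusted p under 0.05 at day 0. The fit of both days without the mosaic arrays called 1 gene at day 4. With the replicate block 0 genes were called and 717 had an unadjusted p under 0.05, against 686 without it; 2 of 3 wild type arrays correlated best with the knockout array of its own number, and the block changed no call. Across 158 genes other than Pcdh19, 22 changed sign under at least 1 alternative, each of them past no threshold. Quantile normalization gave Vim 0.032, Olig2 -0.006 and Cdh2 0.005; the mean of probe sets gave Nr3c2 0.003, Vim 0.062 and Cdh2 0.011; a common array median gave Nono -0.002. When the 6 arrays were left out singly, the log2 difference ranged from -0.382 to 0.022 for Arc, -0.019 to 0.021 for Cdh2, -0.14 to 0.307 for Cdh5, -0.022 to 0.113 for Egfr, -0.036 to 0.28 for Folr1, -0.23 to 0.094 for Hsd17b7, -0.479 to 0.095 for Mag, -0.333 to 0.013 for Mbp, -0.138 to 0.021 for Msi1, -0.056 to 0.343 for Nes, -0.025 to 0.03 for Nono, -0.026 to 0.07 for Olig2, -0.081 to 0.131 for Pax6, -0.001 to 0.197 for Pcdh18, -0.319 to 0.011 for Pfkl, -0.061 to 0.114 for Prom1, -0.115 to 2.053 for Rps13, -0.037 to 0.073 for Slc1a3, -0.034 to 0.05 for Sox2, -0.128 to 0.062 for Ttk and -0.023 to 0.019 for Vim. The cause was not tested. Of the medians of the 34 lists, 14 values with an array left out and 3 under other settings moved by more than the spread between arrays: neuronal genes to -0.049, hedgehog to 0.073, -0.044, -0.039 and 0.048, matrix genes to 0.02 and 0.021, interferon and antigen genes to 0.046, forebrain patterning genes to 0.056, X inactivation and Y chromosome genes to -0.024, progenitor and neuroblast genes to 0.035, neural stem genes to -0.015, oligodendrocyte genes to -0.288 and endothelial and mural genes to 0.106 with an array left out, X inactivation and Y chromosome genes to 0.056 without a filter, and hedgehog and forebrain patterning genes to 0.076 and 0.074 with the filter at the 50th percentile. Quantile normalization shifted the median difference of all genes to 0.0116.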

Other observations

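For a pair of genes, 1 replicate number stood apart on both days. Rps13, which encodes a protein of the small ribosomal subunit, read 8.35, 7.72 and 4.02 on the wild type arrays at day 0 and 7.60, 6.70 and 3.12 at day 4. Replicate 3 was the low wild type array each time. Adcy2, an adenylyl cyclase, read 5.66, 7.92 and 6.04 on the knockout arrays at day 0 and 6.31, 7.29 and 5.92 at day 4. Replicate 2 was the high knockout array each time. Across all genes tested, deviations of equally numbered arrays at day 0 and day 4 correlated at 0.079, 0.044 and 0.07 in wild type and at 0.164, 0.06 and 0.11 in knockout, given as a description. Of these, 0.164 and 0.11 exceed the threshold of 0.1 used between the genotypes, while the main fit did not pair the days. Whether a number marks 1 culture on both days is not given in the sources used here.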
